A study of Mus musculus with 8 samples.

Results

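The genes described here are the enzymes that build cholesterol, the proteins that control them through the sterol regulatory element-binding proteins (SREBPs), and the lipogenic enzymes that the same factors drive. A list of 31 gene symbols was given by role and not by measured values, though earlier results of these data were known when it was chosen. Of these, 29 were found in the deposited table by symbol and Msmo1 was found by its gene identifier under its older symbol Sc4mol, so that 30 of the 22520 genes of the table were examined. All 30 passed the filter on low signals that left 11391 genes for testing, and Mvd was not analysed here.

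The libraries were made by mRNA-seq from liver endothelial cells (ECs) of C57BL/6 mice, which the labels describe as liver microvesicular cells at postnatal day 14. The WT group (n = 4) was Lrp1 floxed without Cre (LRP1 f/f; Cdh5-CreER-/-), and the LRP1 eKO group (n = 4) was LRP1 f/f; Cdh5-CreER+/-. Both groups therefore carried the floxed allele, the controls were littermates, and only the knockouts carried the inducible Cre, which is driven by the promoter of Cdh5, an EC cadherin gene. Loss of Lrp1 and presence of CreER cannot be told apart in this design. ECs were collected on beads coated with an antibody to PECAM-1, so that the cells in each library were selected by this surface protein. The labels give separate samples without stating that each came from a different mouse, and the p-values measure the spread between these libraries.

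Cholesterol is made from acetyl-CoA through mevalonate, the isoprenoids and squalene to lanosterol, which is then demethylated, reduced and isomerized into cholesterol. When sterols in the endoplasmic reticulum run low, SCAP escorts SREBP-2 to the Golgi, where proteases release its transcription factor domain. INSIG proteins hold SCAP and SREBP in the endoplasmic reticulum when sterols are plentiful. LRP1 is a large endocytic receptor that takes up lipoprotein remnants, proteases and their inhibitors.

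Each value is the signal of a gene as deposited after quantile normalization, and its unit before that step is not stated. Signals in a library summed to between 484445 and 485947, and because normalization fixes these totals the sequencing depth is unknown. Signals of different genes are therefore not compared with each other. Fold changes are differences of log2(signal + 1), LRP1 eKO minus WT, tested with limma over all 11391 genes, a scale on which differences of weakly detected genes come out too small. The targeted gene Lrp1 averaged 65.5 ± 13.3 (SD, n = 4) over WT libraries against 4.41 ± 1.65 (SD, n = 4) after deletion (log2 fold change -3.66, SE 0.23, limma adjusted p = 2.8e-06). Its remaining signal was 6.01, 2.16, 5.15 and 4.32 in LRP1 eKO replicates 1 to 4. Among the 8 libraries, WT replicate 4 and LRP1 eKO replicate 2 stood apart most often, since they held the highest signal in 31.1% and 19.3% of all genes tested and WT replicate 4 the lowest in 28.3%. The EC markers Pecam1 and Cdh5 were detected in every library, at signals of 1.53 to 3.85 and 1.26 to 4.99. Of 10 EC markers 7 passed the filter (not Tek, Cldn5 and Erg), and of 8 liver sinusoidal markers 5 did (not Stab2, Clec4g and Gpr182). Of 7 hepatic stellate markers 5 passed as well (not Lrat and Reln), with Col1a1 at 326 to 500 and Dcn at 441 to 581. Since signals of different genes are not compared, the share of ECs in each library was not estimated. The values therefore belong to the whole sample and not to ECs alone. In bulk samples, fewer cells of a type and less RNA per cell cannot be told apart.

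Few genes of this pathway passed the test of LRP1 eKO against WT. Upper 95% limits reached 2.26-fold for Hsd17b7, which passed, and 1.71-fold for Fdps, which did not. The fits therefore do not show that the differences were small. At a limma adjusted p under 0.05, 2 of the 30 genes were higher in LRP1 eKO (Hsd17b7 and Acly) and 1 was lower (Pmvk). That is 6.67% higher and 3.33% lower, where 19.0% of all genes tested were higher and 22.2% were lower. In either direction 10% of the pathway genes passed, against 41.2% of all genes tested. No pathway gene passed both this threshold and a 2-fold change, which 1.66% of all genes tested did. The count was also 0 for a 2-fold change at an unadjusted p under 0.05 (1.77% of all genes tested), and 6 of the 30 genes had an unadjusted p under 0.05 at any size (20%, against 50.6%). The groups did not overlap in 1 gene (Acly), or 3.33%, against 42.6% of all genes tested. Log2 fold changes were positive in 24 genes and negative in 6, with a median of 0.14 against -0.0095 over all genes tested. Without LRP1 eKO replicate 2 they were positive in 15 and negative in 15, with a median of -0.00013.

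**Figure D1:**
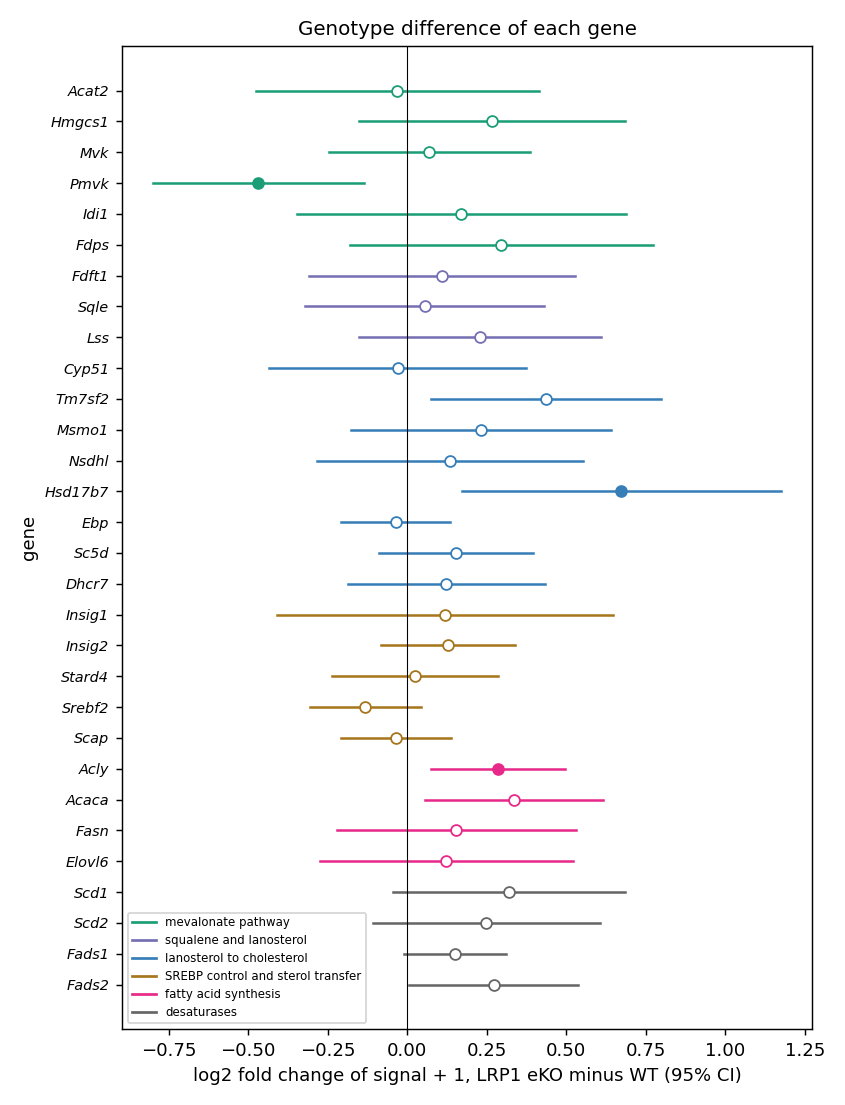
Log2 fold change of each gene (x axis, LRP1 eKO minus WT on log2(signal + 1)) with its 95% confidence interval as a bar. Genes are ordered by pathway step on the y axis and coloured by role, and filled points mark the 3 genes with a limma adjusted p under 0.05. Only Pmvk is filled on the left of 0, and Hsd17b7 and Acly are filled on the right.

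The errors of the pathway genes were wide. The median size of the log2 fold change, regardless of sign, was 0.15 in the pathway and 0.17 over all genes tested, while the median SE was 0.16 and 0.071. Wide errors by themselves raise the size of estimates, so these similar sizes do not show similar differences. Why the counts were low was not tested. The spread behind the errors lay mostly in the LRP1 eKO libraries. There the median SD of log2(signal + 1) was 0.34, against 0.080 over all genes tested, whereas in WT it was 0.13 against 0.10. The SD was wider in LRP1 eKO than in WT in 24 of the 30 genes (80.0%), and in 37.6% of all genes tested. The highest LRP1 eKO library held 1.72 times the signal of the lowest at the median of the pathway, with a range of 1.14 to 2.46 across genes, against a median of 1.15 over all genes tested.

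**Figure D2:**
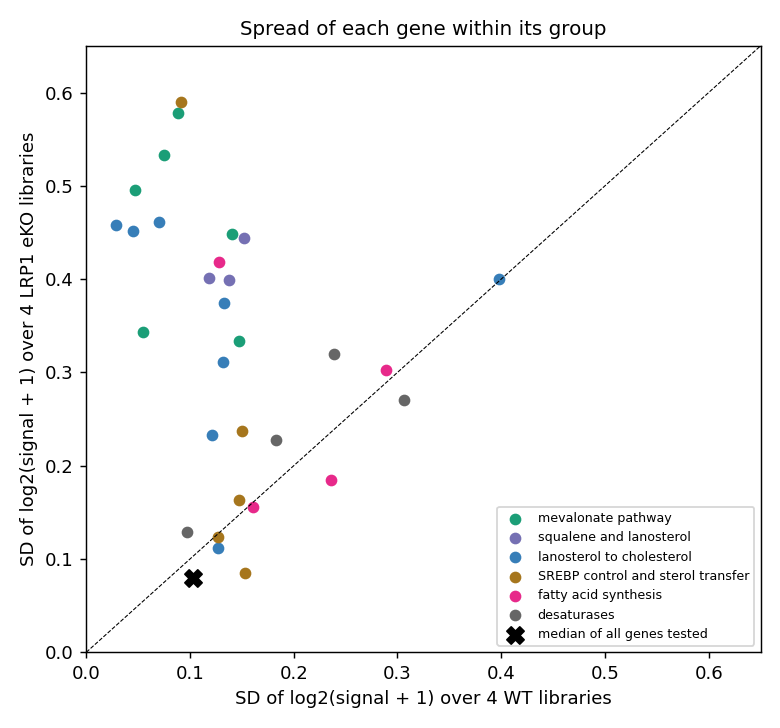
SD of log2(signal + 1) of each pathway gene over the 4 WT libraries (x axis) and over the 4 LRP1 eKO libraries (y axis), coloured by role. Most sterol synthesis enzymes lie above the dashed line of equal spread, and the cross marks the medians of all genes tested (0.10 in WT and 0.080 in LRP1 eKO).

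The wide spread followed 1 order. LRP1 eKO replicate 2 held the highest signal of all 8 libraries in 25 of the 30 genes (83.3%), against 19.3% of all genes tested. Replicate 2 was above replicate 4, and replicate 4 above both replicates 1 and 3, in 25 of the 30 genes (83.3%), against 17.4% of all genes tested. Replicate 2 and this order were not named in advance but taken from these same values, so the shares describe them and are not tests. The genes were measured in the same libraries and are not independent of each other. WT replicate 4 was the lowest of the 8 libraries in 14 genes (46.7%, against 28.3% of all genes tested). The summed signal of the 17 enzymes from acetyl-CoA to cholesterol was 458, 471, 489 and 468 in WT replicates 1 to 4. In LRP1 eKO replicates 1 to 4 it was 417, 764, 415 and 595, so that 2 libraries lay below and 2 above the whole WT range.

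**Figure D3:**
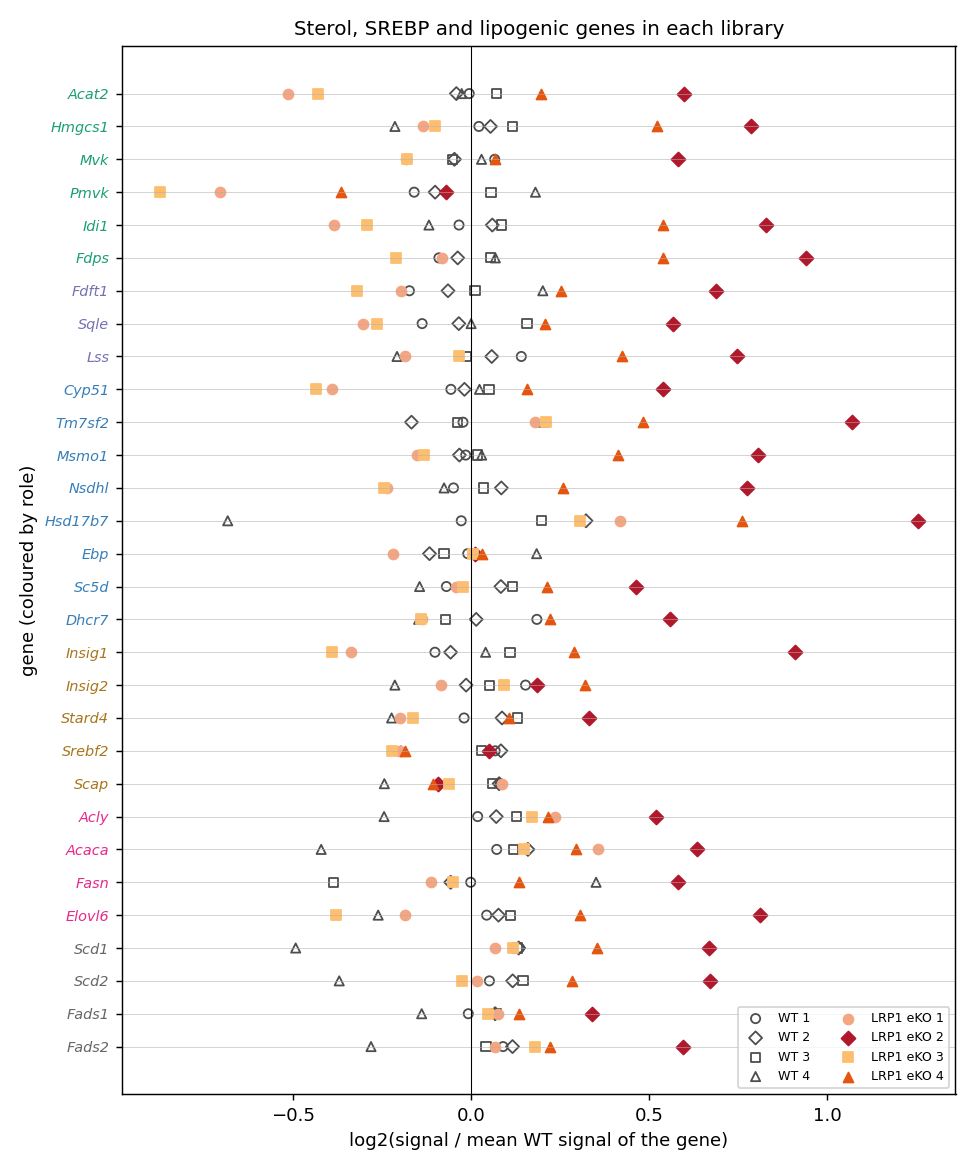
Signal of each gene in each library as log2 of its ratio to the WT mean of that gene (x axis), with genes on the y axis coloured by role. Open grey symbols are WT libraries and filled coloured symbols are LRP1 eKO libraries, with 1 shape for each replicate number. LRP1 eKO replicate 2 (filled diamond) lies farthest right in 25 of the 30 genes, and replicates 1 and 3 (filled circle and square) lie near or left of 0 in most sterol enzymes.

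The mevalonate steps showed this order in 6 of 6 genes. Hmgcs1, which condenses acetyl groups into the precursor of mevalonate, had signals of 38.0, 38.9, 40.6 and 32.3 in WT and 34.1, 64.5, 34.9 and 53.8 in LRP1 eKO. The LRP1 eKO libraries lay on both sides of most WT values, and the log2 fold change was 0.27 (95% CI -0.15 to 0.68, limma adjusted p = 0.273). Fdps, which makes farnesyl diphosphate, was at 70.9, 73.5, 78.4 and 79.1 in WT and at 71.4, 144.7, 65.2 and 109.5 in LRP1 eKO (0.30, 95% CI -0.18 to 0.77, limma adjusted p = 0.288). In both genes replicates 2 and 4 lay above every WT library and replicates 1 and 3 did not. Acat2, the thiolase at the start of the route, was at 14.8, 14.5, 15.7 and 14.6 in WT and at 10.4, 22.5, 11.1 and 17.1 in LRP1 eKO (-0.03, 95% CI -0.47 to 0.41, limma adjusted p = 0.914). Idi1, which isomerizes isopentenyl diphosphate, was at 20.9, 22.3, 22.7 and 19.7 in WT and at 16.4, 38.0, 17.5 and 31.1 in LRP1 eKO (0.17, limma adjusted p = 0.581). For these 2 genes the WT libraries lay in a gap between the high and the low LRP1 eKO libraries. Mevalonate kinase, Mvk, ran from 17.6 to 19.1 in WT and from 16.1 to 27.3 in LRP1 eKO (0.07, limma adjusted p = 0.714).

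Pmvk, phosphomevalonate kinase, was the 1 of the 30 genes that was lower past the test. Its signals were 17.6, 18.3, 20.4 and 22.3 in WT (mean 19.7 ± 2.12, SD, n = 4). In LRP1 eKO they were 12.1, 18.7, 10.7 and 15.3 (mean 14.2 ± 3.56, SD, n = 4). Replicate 2, the highest LRP1 eKO library, lay within the WT range and the other 3 lay below it. The log2 fold change was -0.47 (SE 0.15, 95% CI -0.80 to -0.14, limma adjusted p = 0.0298), with p = 0.0857 in the exact two-sided permutation test, which with 4 libraries against 4 cannot give less than 0.029. The call was lost without WT replicate 3 or 4 and without LRP1 eKO replicate 1 or 3 (limma adjusted p of 0.066 to 0.0782), with values of -0.45 to -0.35.

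The next 3 enzymes lead to the first sterol, and none of them passed the test. For Fdft1, squalene synthase, the log2 fold change was 0.11 (limma adjusted p = 0.663). Sqle, the epoxidase and a rate-limiting step of sterol synthesis, was at 26.3, 28.3, 32.3 and 29.0 in WT and at 23.5, 42.9, 24.1 and 33.4 in LRP1 eKO (0.05, 95% CI -0.32 to 0.43, limma adjusted p = 0.814). Lss, which folds the epoxide into lanosterol, had 0.23 (limma adjusted p = 0.302). All 3 genes had LRP1 eKO replicate 2 on top, with highest to lowest ratios of 1.83 to 2.01 within LRP1 eKO and 1.23 to 1.30 within WT.

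Of the 8 enzymes from lanosterol to cholesterol, 1 was higher and 7 did not pass. Hsd17b7, the 3-ketosteroid reductase of the demethylation complex, had signals of 9.25, 11.8, 10.8 and 5.87 in WT (mean 9.43 ± 2.59, SD, n = 4). In LRP1 eKO they were 12.6, 22.5, 11.7 and 16.0 (mean 15.7 ± 4.90, SD, n = 4). The groups met at 1 point, since WT replicate 2 lay just above LRP1 eKO replicate 3, and WT replicate 4 was far below the rest. The log2 fold change was 0.67 (SE 0.22, 95% CI 0.17 to 1.17, limma adjusted p = 0.0368, exact permutation p = 0.0571). Without WT replicate 4 it was 0.49 and the call was lost (limma adjusted p = 0.0757), as it was without WT replicate 1 or LRP1 eKO replicate 2 or 4 (limma adjusted p of 0.068 to 0.0832).

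The partners of Hsd17b7 in removing the methyl groups at carbon 4 did not pass the test. Msmo1, the methyl oxidase of that complex, was at 74.6, 73.7, 76.3 and 77.0 in WT and at 67.9, 131.8, 68.8 and 100.3 in LRP1 eKO (0.23, 95% CI -0.18 to 0.64, limma adjusted p = 0.33). Nsdhl, its decarboxylating dehydrogenase, had 0.13 (limma adjusted p = 0.588). The WT signals of Msmo1 lay within 1.04 times of each other, the narrowest of the 30 genes, while the LRP1 eKO signals spread 1.94 times.

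Cyp51, the demethylase that acts first on lanosterol, was at 27.9, 28.7, 30.1 and 29.5 in WT and at 22.2, 42.2, 21.5 and 32.4 in LRP1 eKO (-0.03, limma adjusted p = 0.908). Tm7sf2, one of the enzymes that reduce the double bond at carbon 14, was at 6.27, 5.68, 6.21 and 7.34 in WT and at 7.21, 13.4, 7.37 and 8.91 in LRP1 eKO. Its log2 fold change was 0.44 (95% CI 0.08 to 0.80, limma adjusted p = 0.0537), just outside the threshold. For Tm7sf2, LRP1 eKO replicate 1 was below WT replicate 4 and the other 3 LRP1 eKO libraries were above all WT libraries. Sc5d, which sets the double bond at carbon 5, had 0.15 (limma adjusted p = 0.276), and Dhcr7, which reduces the last double bond of the 7-dehydrocholesterol route, had 0.12 (limma adjusted p = 0.503). Ebp, the sterol isomerase, was the 1 enzyme of the 8 without the order of the others, with signals of 16.9 to 20.9 in WT and 15.8 to 18.7 in LRP1 eKO (-0.04, limma adjusted p = 0.724).

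The genes that control SREBPs differed from each other in how they varied. Insig1, itself a classical SREBP target, had the widest spread of the 30 genes in LRP1 eKO, with signals of 19.3, 45.7, 18.6 and 29.7 against 22.7, 23.4, 26.3 and 25.0 in WT. Replicate 2 lay at 2.46 times replicate 3, and the log2 fold change was 0.12 (95% CI -0.41 to 0.65, limma adjusted p = 0.711). Insig2, its paralog, was at 19.5, 23.6, 22.1 and 25.8 in LRP1 eKO and at 23.0, 20.5, 21.5 and 17.8 in WT, with replicate 4 and not replicate 2 on top (0.13, limma adjusted p = 0.293). Srebf2, which encodes SREBP-2, was at 39.0, 39.4, 37.9 and 32.4 in WT and at 32.4, 38.5, 31.9 and 32.7 in LRP1 eKO. LRP1 eKO replicate 2 lay among the WT libraries 1 to 3, and the other LRP1 eKO libraries lay near WT replicate 4 (log2 fold change -0.13, 95% CI -0.31 to 0.04, limma adjusted p = 0.199). Without WT replicate 4, Srebf2 passed the test at -0.19 (limma adjusted p = 0.0383). Scap, the escort of SREBPs, ran from 25.0 to 31.3 in WT and from 27.5 to 31.4 in LRP1 eKO (-0.04, limma adjusted p = 0.733), with replicate 1 highest. Stard4, a sterol carrier of the cytosol, had 0.02 (limma adjusted p = 0.881). LRP1 eKO replicate 2 was the highest of the 8 libraries in 2 of these 5 genes, Insig1 and Stard4.

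Among the fatty acid genes, Acly was the 1 gene whose groups did not overlap. Acly, ATP citrate lyase, supplies cytosolic acetyl-CoA to both the sterol and the fatty acid routes. Its signals were 46.0, 47.7, 49.7 and 38.4 in WT (mean 45.5 ± 4.95, SD, n = 4) and, in LRP1 eKO, 53.5, 65.2, 51.2 and 52.8 (mean 55.7 ± 6.42, SD, n = 4). Every LRP1 eKO library was above every WT library, by a gap from 49.7 to 51.2. The log2 fold change was 0.29 (SE 0.094, 95% CI 0.08 to 0.50, limma adjusted p = 0.0346, exact permutation p = 0.029, the smallest possible). The call was lost without WT replicate 1 or 4 and without LRP1 eKO replicate 1, 2 or 4 (limma adjusted p of 0.0539 to 0.0709), and without WT replicate 4 the value was 0.21.

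Acaca, the acetyl-CoA carboxylase that commits carbon to fatty acids, was at 7.92, 8.41, 8.17 and 5.62 in WT and at 9.64, 11.7, 8.35 and 9.23 in LRP1 eKO (0.33, 95% CI 0.06 to 0.61, limma adjusted p = 0.0554). Only WT replicate 2 overlapped the LRP1 eKO libraries. Fasn, fatty acid synthase, had 0.15 (limma adjusted p = 0.484), with WT replicate 4 second among the 8 libraries. Elovl6, which lengthens palmitate, had 0.12 (limma adjusted p = 0.604) and a spread of 2.29 times within LRP1 eKO.

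The 4 desaturases all had WT replicate 4 as the lowest and LRP1 eKO replicate 2 as the highest of the 8 libraries. Scd1, which makes oleate from stearate, was at 58.5, 58.4, 58.2 and 37.8 in WT and at 55.7, 84.6, 57.7 and 68.0 in LRP1 eKO (0.32, 95% CI -0.05 to 0.69, limma adjusted p = 0.142). WT replicates 1 to 3 were nearly equal, and LRP1 eKO replicates 1 and 3 lay just below them. Its paralog Scd2 had 0.25 (limma adjusted p = 0.233). Fads1 and Fads2, which desaturate polyunsaturated fatty acids, had 0.15 (limma adjusted p = 0.119) and 0.27 (limma adjusted p = 0.0922).

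The promoter sequences of the 3 genes that passed the test show what their upstream regions hold. Sequences are from RefSeq on GRCm38.p6, read on the strand of the gene for the 250 bases before the annotated start. Capitals mark CCAAT or its reverse complement ATTGG, the box bound by NF-Y, which is known to act together with SREBPs.

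Hsd17b7, chr1:169969206-169969455, minus strand: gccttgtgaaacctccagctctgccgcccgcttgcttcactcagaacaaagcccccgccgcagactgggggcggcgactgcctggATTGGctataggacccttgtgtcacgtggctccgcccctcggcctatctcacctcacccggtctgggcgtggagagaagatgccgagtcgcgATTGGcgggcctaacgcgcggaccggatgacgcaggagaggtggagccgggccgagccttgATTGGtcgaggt

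Pmvk, chr3:89454291-89454540, plus strand, the first of 2 annotated starts: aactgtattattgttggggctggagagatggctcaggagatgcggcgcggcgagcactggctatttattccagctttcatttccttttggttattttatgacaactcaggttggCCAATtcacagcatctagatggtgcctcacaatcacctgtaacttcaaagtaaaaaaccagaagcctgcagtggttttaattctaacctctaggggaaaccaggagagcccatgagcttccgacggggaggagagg

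Acly, chr11:100528001-100528250, minus strand: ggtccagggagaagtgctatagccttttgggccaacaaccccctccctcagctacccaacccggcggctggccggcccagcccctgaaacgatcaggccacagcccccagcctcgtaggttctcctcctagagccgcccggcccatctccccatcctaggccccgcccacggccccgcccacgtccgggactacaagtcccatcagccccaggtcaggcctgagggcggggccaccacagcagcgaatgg

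Hsd17b7 holds 3 such boxes, Pmvk 1 and Acly 0. The sterol regulatory element core TCACCCCA, searched on both strands, was in the promoters of 2 genes, Hmgcs1 and Srebf2, which are shown as windows around it with TCACCCCA and any CCAAT box in capitals.

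Hmgcs1, chr13:119690184-119690251, plus strand: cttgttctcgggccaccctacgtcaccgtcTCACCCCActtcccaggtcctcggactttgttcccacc

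Srebf2, chr15:82147077-82147144, plus strand: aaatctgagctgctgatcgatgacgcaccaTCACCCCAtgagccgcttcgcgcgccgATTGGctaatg

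In Hmgcs1 the core began 137 bases before the start, and in Srebf2 162 bases before it. RefSeq promoters were found for 23 of the 30 genes (29 promoters). TCACCCCA was in 6.9% of them and in 1.34% of all 32851 promoters in the RefSeq set, counting the same 250 bases. The box CCAAT was in 58.6% of the pathway promoters (17 genes) and in 33.8% of all promoters. The E-box form TCACGTGA was in none of the pathway promoters and in 0.785% of all promoters. No match to TCACCCCA overlapped a CCAAT match in these promoters. A missing match says only that these letters are not in this window. Hmgcs1 and Srebf2, the genes with the core, had the same order of LRP1 eKO libraries, with a ratio of highest to lowest of 1.89 for Hmgcs1 and 1.21 for Srebf2.

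Other genes of the pathway were taken from a list of 28 that are not in the gene set above, of which 22 passed the filter, with 4 higher, 1 lower and 17 not past the test, where 19.0% of all genes tested were higher and 22.2% lower. In the sterol and SREBP group, 1 of 6 tested was higher and 1 lower. Ggps1, geranylgeranyl diphosphate synthase, was at 13.7, 14.0, 12.8 and 12.1 in WT and at 14.6, 14.6, 14.7 and 15.2 in LRP1 eKO, and rose by 0.16 (limma adjusted p = 0.0399). Every LRP1 eKO library was above every WT library, and the LRP1 eKO libraries lay within 1.04 times of each other. The Ggps1 call was lost without WT replicate 3 or any 1 LRP1 eKO replicate (limma adjusted p of 0.0635 to 0.0991) and with the replicate block (0.0846). Tmem97, the sigma-2 receptor that binds NPC1, ran from 32.0 to 32.7 in WT and from 24.7 to 30.4 in LRP1 eKO, and fell by 0.26 on the log2 scale (limma adjusted p = 0.00805).

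In the group for sterol handling and the liver X receptors, 3 of 8 tested were higher in the limma fit and none was lower. At an unadjusted p under 0.05, which 50.6% of all genes tested reached in either direction, 1 was lower. Npc1, which moves cholesterol out of lysosomes, was at 12.4, 12.5, 11.9 and 11.2 in WT and at 20.7, 16.6, 20.5 and 18.4 in LRP1 eKO (0.62, 95% CI 0.46 to 0.79, limma adjusted p = 0.000167). Here LRP1 eKO replicates 1 and 3 were the highest and replicate 2 the lowest of the group, the reverse of the synthesis enzymes. Npc2, its soluble partner, rose by 0.17 (limma adjusted p = 0.00511), and Abca1, the cholesterol exporter, rose by 0.28 (limma adjusted p = 0.0205), a call lost without LRP1 eKO replicate 1 (0.0563) or 3 (0.0584). None of the 8 lipogenic genes tested with limma was higher or lower. At an unadjusted p under 0.05 the lipogenic list held 1 gene of the 8, against 50.6% of all genes tested. Replicate 2 was above replicate 4, and replicate 4 above 1 and 3, in 2 of 6 sterol and SREBP genes, 4 of 8 lipogenic genes and 0 of 8 sterol handling genes, against 17.4% of all genes tested.

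Markers of other cell types moved across the same libraries. The summed signal of 11 macrophage markers was 172 to 269 in WT and 738, 64.2, 678 and 403 in LRP1 eKO replicates 1 to 4. All 11 had the reverse order in LRP1 eKO, with replicate 2 below replicate 4 and both below replicates 1 and 3, against 13.5% of all genes tested. The 11 include Clec4f and Vsig4, which did not pass the filter, whereas that share covers only genes that did. Of the 9 macrophage markers tested, 1 (Csf1r) was higher and 1 (Cd14) was lower in LRP1 eKO, and Clec4f was at 0 in every WT library. The same reverse order was seen in 7 of 8 liver sinusoidal markers, whose sum was 9.07 to 12.5 in WT and 10.3 to 32.1 in LRP1 eKO, and in 6 of 10 EC markers, whose sum was 38.7 to 44.3 and 52.0 to 70.4. These counts also include markers below the filter. Past the limma test, 3 of 7 EC markers (Cdh5, Eng and Esam) and 2 of 5 sinusoidal markers (Oit3 and Flt4) were higher. None of them was lower, where 19.0% of all genes tested were higher and 22.2% lower. Cldn5, an EC marker below the filter, went the other way, from a mean of 1.08 in WT to 0.67 in LRP1 eKO. The remaining Lrp1 signal had this reverse order too, with replicate 2 lowest (2.16) and replicate 1 highest (6.01). The part of these markers and of Lrp1 in the order of the sterol genes was not tested.

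**Figure D4:**
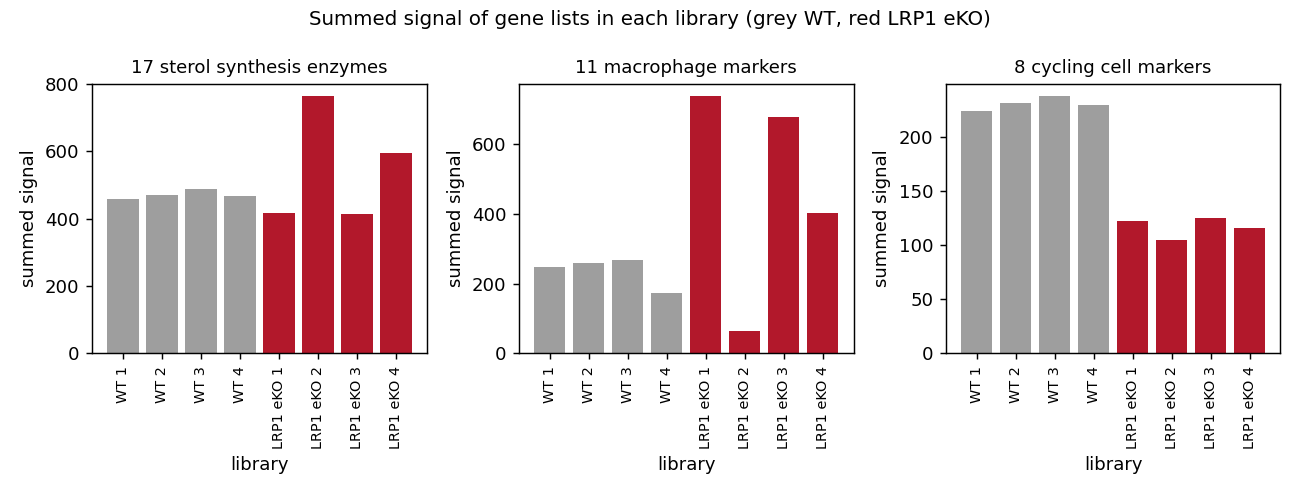
Summed signal of the 17 sterol synthesis enzymes, of 11 macrophage markers and of 8 cycling cell markers (y axes, each from 0) in each library (x axis), with WT bars in grey and LRP1 eKO bars in red. Within LRP1 eKO the enzymes are highest in replicate 2 and lowest in replicates 1 and 3 (764 against 417 and 415), and the macrophage markers run the other way (64.2 against 738 and 678).

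All 8 cycling cell markers were lower in LRP1 eKO, where 22.2% of all genes tested were lower. Their WT sums were 224 to 237. In LRP1 eKO the sums of replicates 1 to 4 were 122, 104, 125 and 116. These sums had the order of the macrophage markers, as did 4 of the 8 genes, over a narrower range. The 10 hepatocyte markers, of a cell type that makes much of the body's cholesterol, summed to 65.2 to 93.1 in WT and 22.4 to 29.3 in LRP1 eKO, and 5 of the 5 tested were lower. Sums of 7 hepatic stellate markers were 1051 to 1086 in WT and 931 to 1042 in LRP1 eKO, and those of 6 skeletal muscle markers were 32.5 to 55.5 and 5.83 to 7.75. Of those tested, 2 of 5 stellate and 5 of 5 skeletal muscle markers were lower, and 0 were higher. Of 7 adipocyte markers, 6 were at 0 in at least 1 library, and only Fabp4 passed the filter. Fabp4 was at 182 to 220 in WT and lower, at 66.7 to 110, in LRP1 eKO (limma adjusted p = 0.000406). Which cells its signal came from was not tested, so it is not read here as an adipocyte value. The part of these markers in the genotype differences of the sterol genes was not tested.

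**Figure D5:**
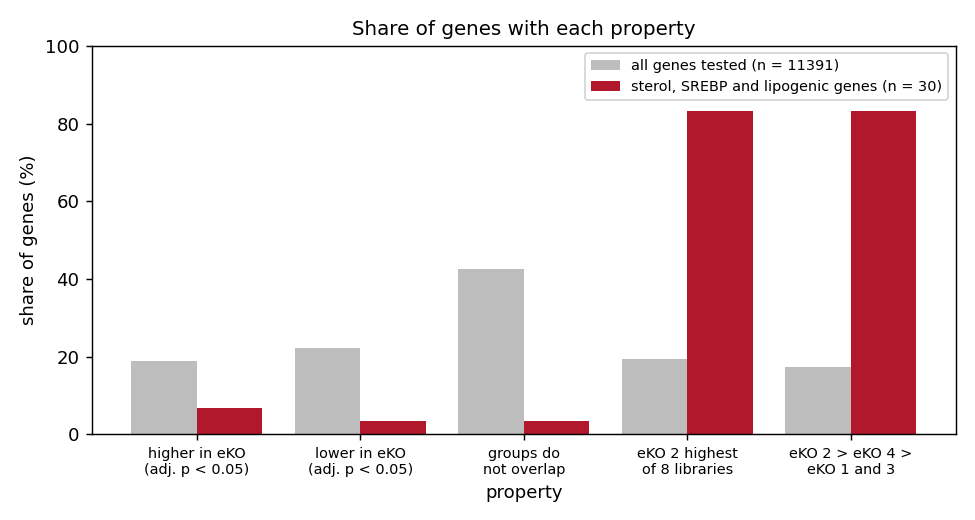
Share of genes with each property (y axis, percent) among all 11391 genes tested (grey) and among the 30 pathway genes (red). The red bars are shorter for the genotype calls (6.67% against 19.0% higher, 3.33% against 22.2% lower, 3.33% against 42.6% without overlap) and taller for LRP1 eKO replicate 2 as the highest library (83.3% against 19.3%) and for the order within LRP1 eKO (83.3% against 17.4%). Replicate 2 and this order were taken from the values of the pathway genes themselves.

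Without LRP1 eKO replicate 2, 9 of the 30 log2 fold changes turned their sign. Pmvk was then the 1 gene past the test (3.33%, against 37.7% of all genes tested). Without LRP1 eKO replicate 3 the median was 0.25, and 4 genes were higher and 0 lower in the limma fit (13.3%, against 32.6% of all genes tested). Without both WT replicate 4 and LRP1 eKO replicate 2, the median was -0.0029, with Tm7sf2 and Acly higher and Pmvk and Srebf2 lower (13.3% in either direction, against 43.8% of all genes tested).

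Some of these signals may hold reads from near-identical or overlapping genes. In GENCODE M21 on GRCm38, the share of 50-base stretches found in another gene was 64.1% for Fdps (57.3% in Gm43738 alone), 49.1% for Acaca (Gm5182), 40.7% for Acat2 (Acat3), 20% for Idi1 (Gm13502), 19.5% for Tm7sf2 (Vps51) and 10.9% for Fdft1 (Gm6781). Exons overlap Gm43738 over 26.7% of the bases of Fdps, Ctsb on the other strand over 18.3% of Fdft1, 5830462I19Rik over 13.2% of Scap, the antisense gene Gm48342 over 12.1% of Hmgcs1 and Vps51 over 12.1% of Tm7sf2. Pmvk, Hsd17b7 and Acly had no such stretch and no overlapping exon. Pmvk lies on chromosome 3 from 89454541 to 89469013, Hsd17b7 on chromosome 1 from 169949535 to 169969241 and Acly on chromosome 11 from 100476353 to 100528000.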

How the data were processed

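The 8 mRNA-seq libraries of liver ECs (4 WT, 4 LRP1 eKO) came from RNeasy RNA and a TruSeq kit, and were grouped by their labels. The authors deposited a quantile-normalized signal for each gene and library. The study's methods name trimGalore, STAR, featureCounts against GENCODE and edgeR, while the submitters' processing notes name TopHat2, Cufflinks and mm10. Neither source describes this table, so the unit before normalization, the strand setting and the depth are not given in the sources used here. Quantile normalization removes any shift shared by all genes of a library.

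A gene was tested if its signal reached 1 in 4 or more of the 8 libraries. For these 11391 genes log2(signal + 1) was fitted on genotype alone with limma (version 3.58.1, R version 4.3.3), using its mean-variance trend, and p-values were adjusted by Benjamini and Hochberg's method. An exact two-sided permutation test was added for single genes. Counting error has no interval here, so the replicate spread (4 libraries per group) sets the precision. The calculation was tested on simulated data. All listed genes found in the table are reported, and other pathway genes are named where the adjusted p was under 0.05. Some pathway genes of that list are not reported here. The gene set and the lists were chosen with earlier results of these data known. Promoters came from RefSeq, gene positions and transcripts from GENCODE M21, and plots used matplotlib (3.10.9, Python 3.11.15). A planned comparison of protein sequences was not made. Also tried were a pseudocount of 0.1 or 5, no filter on low signals, a mean signal of at least 5, other limma settings, centring of each library on a mean trimmed by 30% per end, a replicate block, other thresholds, ratios of means and leaving out libraries.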

Additional observations from a re-analysis of the deposited data

Results flagged for a closer look

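Each pathway gene was examined within each group of 4 libraries for 1 library far from the others, by the gap to its nearest neighbour divided by the range of the group. Of 60 groups, 5 exceeded Dixon's critical value, where chance gives about 1 in 20, or 3 of 60. In LRP1 eKO, replicate 1 was the lowest for Ebp (0.908) and replicate 2 the highest for Srebf2 (0.864). In WT, replicate 4 was the lowest for Scap (0.931), Acaca (0.846) and Scd1 (0.990). The wide LRP1 eKO spread of the sterol enzymes was not picked out in this way, because replicate 4 lay between replicate 2 and replicates 1 and 3.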

How the results depend on the processing

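The 3 calls (Pmvk, Hsd17b7 and Acly) were made again with either other pseudocount, a mean signal of at least 5, limma without trend or with robust moderation, and centring. Across single values 586 kept their sign and, where a p-value was given, their call at the main adjusted p threshold. Another 29 lost the call and 10 gained it, all with the sign kept. The sign changed in 39. With no filter or at an adjusted p under 0.01, 0 genes were higher and 0 lower, and with no filter 18.7% of all genes were called. With array weights 2 were lower and 2 higher, where 50.2% of all genes tested were called. The counts were the same without WT replicate 4 and LRP1 eKO replicate 2 together, against 43.8%. Leaving out 1 library gave 0 to 4 higher and 0 to 1 lower, against 32.6% to 41.9% in either direction. At 1.5-fold 1 gene passed. The share of all genes at 1.5-fold or at an adjusted p under 0.01 is not given here. With the replicate block 3 were higher and 1 lower, against 36.7% of all genes tested in either direction. That fit added Acaca (limma adjusted p = 0.035) and lost Ggps1 (limma adjusted p = 0.0846). Deviations of libraries that share a number correlated at -0.086, -0.13, 0.18 and 0.038. The labels do not state whether such libraries shared a litter or batch, and these values cannot tell. Depth is unknown, so no detection limit could be set.

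Signs turned as follows on the log2 scale, and the cause was not tested. With 1 library left out, values ran from -0.23 to 0.12 for Acat2, -0.092 to 0.15 for Mvk, -0.039 to 0.35 for Idi1, -0.078 to 0.25 for Fdft1, -0.11 to 0.17 for Sqle, -0.21 to 0.10 for Cyp51, -0.068 to 0.26 for Nsdhl, -0.072 to 0.023 for Ebp, -0.012 to 0.21 for Dhcr7, -0.14 to 0.28 for Insig1, -0.075 to 0.093 for Stard4 and -0.056 to 0.26 for Elovl6. With array weights, and then without both libraries, they were -0.018 and -0.083 for Mvk, -0.024 and -0.076 for Idi1, -0.048 and -0.11 for Sqle, -0.037 and -0.091 for Nsdhl, 0.018 and 0.0059 for Ebp, -0.0081 and -0.056 for Dhcr7, -0.033 and -0.12 for Insig1, -0.11 and -0.14 for Stard4 and -0.060 and -0.12 for Elovl6. Without both libraries Fdft1 was at -0.012 and Scd2 at -0.013. As a ratio of arithmetic means Acat2 was at 0.036 and Cyp51 at 0.024.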
